A study of Mus musculus with 9 samples.

Results

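The comparison described here is the population effect that total and polysomal RNA share: MP against LSK cells, with the RNA fraction held fixed in 1 additive model. It uses 9 of the 9 libraries of the series, 5 from MP and 4 from LSK cells, and its members are the genes that passed the test of the population term and moved the same way in both fractions. Of 16426 genes tested, 1759 passed and all 1759 had the same direction in both fractions. Both populations were primary hematopoietic cells of C57BL/6 mice. The labels call LSK stem cells and MP progenitor cells. LSK is the usual short name for cells that lack lineage markers and carry Sca-1 and Kit, and the labels do not spell out MP.

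There were 2 LSK total, 2 LSK polysomal, 2 MP total and 3 MP polysomal libraries. All 4 groups had been incubated with cycloheximide, an inhibitor that holds ribosomes on their messages, at 100 ug/ml for 10 min. Part of each lysate was set aside as total RNA and the rest was separated on a 10 to 60% sucrose gradient, of whose 10 fractions number 7 served as polysomal RNA. The labels do not say whether libraries of a group came from separate mice or sorts, or whether a total and a polysomal library share a lysate, so all p-values rest on the spread among these libraries alone, which may be technical.

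Blood cells arise from rare hematopoietic stem cells, which sit at the top of the LSK compartment together with multipotent progenitors, some of them primed for the lymphoid lineage. Cells that lose Sca-1 and keep Kit are the myeloid and erythroid progenitors, which give rise to granulocytes, monocytes, red cells and platelets. RNA in the polysomal fraction carries several ribosomes and is in translation, whereas total RNA also holds messages that are not. A difference that is present in both fractions is one that total message and ribosome-bound message share.

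Total counts were 27342343 to 30260450 in LSK and 30463969 to 34807735 in MP libraries. Levels below are CPM, that is counts relative to the library size, scaled by TMM (the trimmed mean of M-values). A mean with SD takes the total and polysomal libraries of a population together, so the SD also holds the difference between fractions. Between 17199 and 26046 genes had a count, and the fewest were found in LSK polysomal 2. Some libraries stood apart from the others of their population. The 22 tested genes of maturing neutrophils held 2.16% of counts in MP polysomal 1 and 1.68% in MP total 1, against 0.0991 to 0.432% in the other 7 libraries. Immunoglobulin genes held 0.768% in LSK total 2 and 0.503% in LSK polysomal 2, against 0.0923 and 0.108% in the LSK libraries numbered 1 and at most 0.0312% in MP.

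The gene of the sort marker Sca-1 separated the populations, and that of Kit did not. Ly6a encodes Sca-1 and stood at 50.2 and 77.4 CPM in LSK total, 72.1 and 110 CPM in LSK polysomal, 0.966 and 0.584 CPM in MP total and 1.26, 0.595 and 0.159 CPM in MP polysomal RNA. All 4 LSK libraries lay far above all 5 MP libraries, with a log2 fold change of MP over LSK of -6.75 (SE 0.640, adjusted p = 0.000376, edgeR quasi-likelihood test). Kit, the receptor of stem cell factor that gives the K of LSK, ranged from 330 to 1595 CPM in LSK and from 493 to 1290 CPM in MP libraries, and these ranges overlapped (log2 fold change -0.19, SE 0.481, adjusted p = 0.880). The lineage genes Cd3e, Cd4, Cd8a and Ms4a1 were at most 3.41 CPM in LSK and 0.595 CPM in MP libraries. Itgam, which encodes CD11b of granulocytes and macrophages, reached 49.2 CPM in LSK and 176 CPM in MP libraries.

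MP cells had fewer messages that were higher than messages that were lower. The population term passed an adjusted p of 0.05 for 10.7% of the genes tested, 463 higher in MP (2.82%) and 1296 lower (7.89%). The median log2 fold change was 2.70 among the genes that were higher and -3.22 among those that were lower, and the smallest change that passed was 1.14 in size. Changes of at least 4-fold were found for 352 of the higher and 1081 of the lower genes, and changes of at least 16-fold for 54 and 431. The 463 higher genes together held 1.63 to 2.02% of counts in LSK and 6.91 to 9.40% in MP libraries. The 1296 lower genes held 4.48 to 5.01% in LSK and 0.665 to 0.893% in MP libraries. Since these shares belong to the genes the test chose, they describe how much RNA the change involved and support nothing further. In bulk RNA, fewer cells that carry a message and less of it per cell cannot be told apart.

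Libraries of the 2 populations separated for most of these genes. Of the 1759 genes, 1499 had no overlap between the 5 MP and the 4 LSK libraries (422 higher and 1077 lower in MP). Over all tested genes 12.9% had none (4.34% higher and 8.51% lower). At least 10 CPM on average was reached by 282 of the higher and 493 of the lower genes. The lower genes were less abundant, with a median mean level of 2.91 CPM against 14.9 CPM for the higher and 15.4 CPM for all tested genes. Of the lower genes, 43 had a count of 0 in all 5 MP libraries, and 2 of the higher genes had 0 in all 4 LSK libraries. Protein-coding genes made up 89.8% of the higher and 84.1% of the lower genes that could be placed in the annotation, against 80.8% of all tested genes, and 79 of the lower genes were immunoglobulin or antigen receptor segments. Leaving out 1 library at a time gave between 1129 and 1847 passing genes, the lowest without LSK polysomal 1, and 844 genes (208 higher, 636 lower) passed in all 9 of these fits. Without both MP libraries numbered 1, 827 genes passed, and without both MP libraries numbered 2, 546 passed. DESeq2 with the same model called 2900 genes. Scaling by library totals alone moved the median log2 fold change of all tested genes from -0.0442 to -0.265, and 1963 genes then passed, 19.5% of them higher in MP against 26.3% with TMM.

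**Figure D1:**
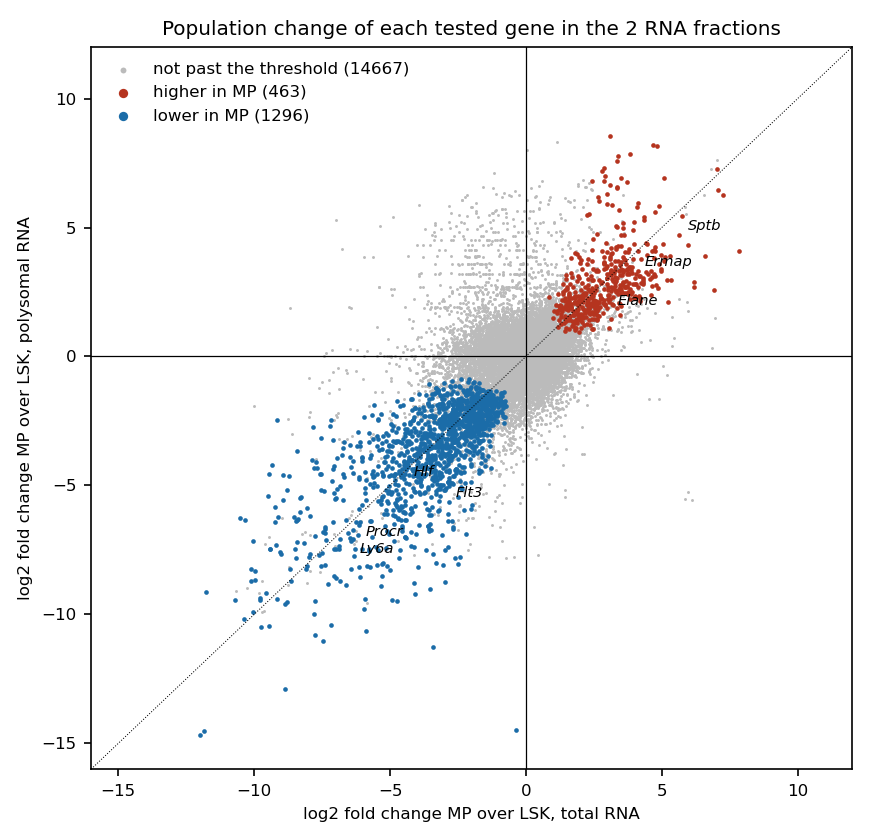
Log2 fold change of MP over LSK in total RNA (horizontal axis) against polysomal RNA (vertical axis) for the 16426 tested genes, 1 point per gene, with the dotted line marking equal change. All 463 genes that were higher (red) lie in the upper right and all 1296 that were lower (blue) in the lower left, which the rule for members requires.

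The members were chosen on the same total and polysomal values, so the sizes of their change in each fraction are a description. The genes that were higher had a median log2 fold change of 2.72 in total and 2.56 in polysomal RNA, and the lower genes -3.05 and -3.21. Among the genes that did not pass, 8309 of 14667 (56.7%) had the same direction in both fractions. Each fraction alone gave fewer calls, 179 genes in total RNA (1.09% of those tested) and 551 in polysomal RNA (3.35%). The genes of total RNA divided into 45 higher (0.274%) and 134 lower (0.816%), those of polysomal RNA into 86 higher (0.524%) and 465 lower (2.83%). Of the 179 genes 25.1% were higher in MP, and of the 328 called after scaling by library totals alone 13.1% were. The count in total RNA ranged from 0 (without any 1 of 7 libraries) to 446 (without LSK polysomal 2) when 1 library was left out, and the count in polysomal RNA from 0 (without MP polysomal 1 or 2) to 516. Of the 1759 members, 154 passed in both fractions alone, 24 in total RNA only, 387 in polysomal RNA only and 1194 in neither. Of these 1194 genes, 945 had no overlap between populations. A test of whether the population effect differed between fractions called 0 genes (0% of those tested) with edgeR (smallest adjusted p = 0.877), and 869 genes, 48 of them members, had an unadjusted p under 0.05. A p that misses the threshold does not show that the effect was equal: the 2 fraction estimates of a member differed by a median of 0.783 on the log2 scale and by more than 1 for 705 members. The member farthest from equality in the plot of both fractions was Ighg1, an immunoglobulin heavy chain constant gene with log2 fold changes of -0.38 in total and -14.48 in polysomal RNA. It was at most 0.0999 CPM in the total libraries of either population and rested on LSK polysomal 1 and 2, with 8.04 and 176 CPM, and it lost its call in 7 of 9 fits that left out 1 library (adjusted p = 0.0564 to 0.210).

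**Figure D2:**
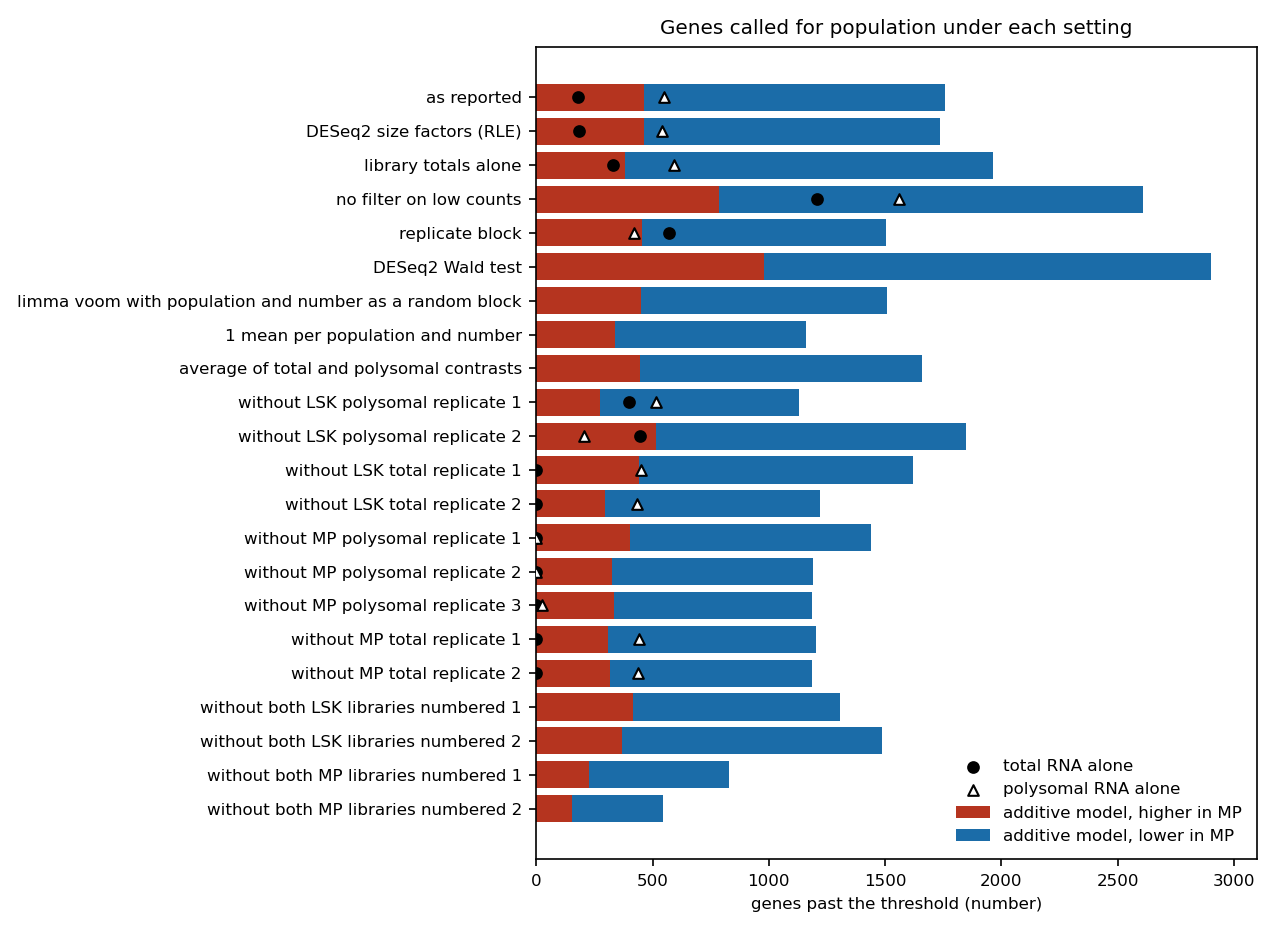
Number of genes that passed for the population term (bars, split by direction) in the additive model and in each alternative setting, with the counts in total RNA alone as circles and in polysomal RNA alone as triangles. The additive count was 1759 with all libraries and lay between 546 without both MP libraries numbered 2 and 2900 with DESeq2.

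The stretches upstream of 5 members are shown because their genes moved together with a named group in both fractions: Ermap with the red cell membrane, Elane with the granules, Procr and Hlf with the stem cell genes and Gimap6 with its cluster. Each is the 150 bases before the most upstream annotated start, read 5′ to 3′ on the gene's strand, from the RefSeq promoter table for GRCm38.p6. Capitals mark a match on either strand to GATAA, the core that GATA factors bind, CACCC, a box bound by Klf factors, or GGAAGT, a core bound by Ets factors. The intervals are chr4:119190012-119190161 (minus strand) for Ermap, chr10:79886097-79886246 (plus) for Elane, chr2:155750967-155751116 (plus) for Procr, chr11:90390918-90391067 (minus) for Hlf and chr6:48708245-48708394 (minus) for Gimap6.
Ermap: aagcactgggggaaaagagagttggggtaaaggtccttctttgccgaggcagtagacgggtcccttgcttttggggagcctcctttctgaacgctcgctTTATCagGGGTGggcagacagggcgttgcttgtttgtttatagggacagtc
Elane: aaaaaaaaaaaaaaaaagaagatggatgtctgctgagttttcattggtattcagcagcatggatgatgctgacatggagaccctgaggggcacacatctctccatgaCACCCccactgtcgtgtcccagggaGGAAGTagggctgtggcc
Procr: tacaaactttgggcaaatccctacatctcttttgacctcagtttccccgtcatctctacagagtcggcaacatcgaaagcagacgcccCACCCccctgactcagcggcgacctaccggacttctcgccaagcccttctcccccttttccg
Hlf: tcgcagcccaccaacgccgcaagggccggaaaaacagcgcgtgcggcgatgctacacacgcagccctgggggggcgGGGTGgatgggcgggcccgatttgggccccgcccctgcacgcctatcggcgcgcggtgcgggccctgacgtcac
Gimap6: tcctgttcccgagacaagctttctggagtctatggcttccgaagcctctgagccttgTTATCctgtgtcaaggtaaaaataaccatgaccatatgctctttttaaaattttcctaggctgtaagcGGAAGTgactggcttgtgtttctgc

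The stretches of Ermap and Gimap6 hold a GATA match, those of Ermap, Elane, Procr and Hlf a CACCC match and those of Elane and Gimap6 a GGAAGT match. Among all 32851 promoter windows of the same length, 13.3% hold GATAA, 37.4% CACCC and 13.6% GGAAGT on either strand. A match is a run of letters and not a shown binding site, and the lack of one says nothing of the factor. These shares were not compared between the higher and the lower members, because only 320 of 463 higher and 851 of 1296 lower genes had a promoter in the table.

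Among the gene lists, that of genes known from hematopoietic stem cells had the most members lower in MP. Of 40 such genes 29 passed as lower and 0 as higher, against 7.89% of all tested genes passing as lower. The list had a median log2 fold change of -3.02 beside -0.04 for all tested genes. It includes Ly6a, whose product Sca-1 defines LSK cells, so that member had to be lower. Like the other lists it was written with earlier results of these data known, so its count is a description. Procr encodes the endothelial protein C receptor EPCR, a surface marker of stem cells, and it stood at 52.5 and 34.7 CPM in LSK total, 77.2 and 37.9 CPM in LSK polysomal, 0.699 and 0.552 CPM in MP total and 0.786, 0.826 and 0.414 CPM in MP polysomal RNA. Every MP library lay below every LSK library in both fractions (log2 fold change -6.27, SE 0.473, adjusted p = 0.000336, the smallest that any gene reached). Hlf, a transcription factor that maintains stem cells, was at 171 and 176 CPM in LSK total, 179 and 127 CPM in LSK polysomal, 9.69 and 7.27 CPM in MP total and 10.5, 9.58 and 7.59 CPM in MP polysomal RNA. The populations again did not overlap, and the log2 fold changes of Hlf in total and polysomal RNA were -4.35 and -4.05. Leaving out 1 library at a time gave between 21 and 30 lower genes in the stem cell list. Without both MP libraries numbered 1 it had 19, and without both numbered 2 it had 17.

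Of 25 adhesion and homing genes 5 fell (20%, against 7.89% of all tested genes), among them Esam, Robo4, Jam2 and Jam3, 1 rose, Vcam1, and 19 did not pass. Robo4, a guidance receptor of stem cells and endothelium, was at 29.7 and 16.7 CPM in LSK total, 35.8 and 76.0 CPM in LSK polysomal, 0.799 and 0.422 CPM in MP total and 1.06, 0.496 and 0.861 CPM in MP polysomal RNA. All LSK libraries lay above all MP libraries (log2 fold change -5.73, SE 0.520, adjusted p = 0.000376), and the gene averaged 39.5 ± 25.6 CPM (SD, n = 4) in LSK and 0.727 ± 0.264 CPM (SD, n = 5) in MP libraries. Esam, an adhesion molecule of endothelium and stem cells, averaged 124 ± 53.5 CPM (SD, n = 4) in LSK and 5.55 ± 1.87 CPM (SD, n = 5) in MP libraries. F11r, which encodes the junction molecule JAM-A, fell by 4.42 on the log2 scale (SE 0.371) and Emcn, which encodes the sialomucin endomucin, fell by 5.38 (SE 0.531).

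Emcn is also an endothelial gene, so the list of other cells it belongs to is given here. Of 10 tested genes of stroma and endothelium, 2 were lower in MP, Emcn and Runx2 (20%, against 7.89% of all tested genes). The summed level of the 10 genes was 155 to 428 CPM in LSK and 89.4 to 209 CPM in MP libraries. A further 12 genes of that list, among them the endothelial cadherin Cdh5 and the stromal genes Cxcl12, Lepr and Col1a1, had at most 43 reads over all 9 libraries and were not tested. The part of such cells in the result was not tested.

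Other surface markers of stem and progenitor cells changed less or did not pass. Cd34, a sialomucin on stem and progenitor cells, was at 1563 and 599 CPM in LSK total, 1524 and 1789 CPM in LSK polysomal, 545 and 237 CPM in MP total and 402, 470 and 265 CPM in MP polysomal RNA. All MP libraries lay below all LSK libraries, by -1.83 on the log2 scale (SE 0.397, adjusted p = 0.0143), but the gap between LSK total 2 and MP total 1 was small. Adgrg1, an adhesion receptor of stem cells, fell by 2.14 (SE 0.399) from 1206 to 5918 CPM in LSK to 509 to 971 CPM in MP libraries. Slamf1, the CD150 marker used to purify stem cells, did not pass (log2 fold change -2.06, SE 0.634, adjusted p = 0.0651), and its level of 2.20 CPM in LSK polysomal 2 lay below all 5 MP libraries. Without LSK polysomal 2 it passed (adjusted p = 0.00444). Cd48 overlapped between populations (log2 fold change -0.69, SE 0.388, adjusted p = 0.333).

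**Figure D3:**
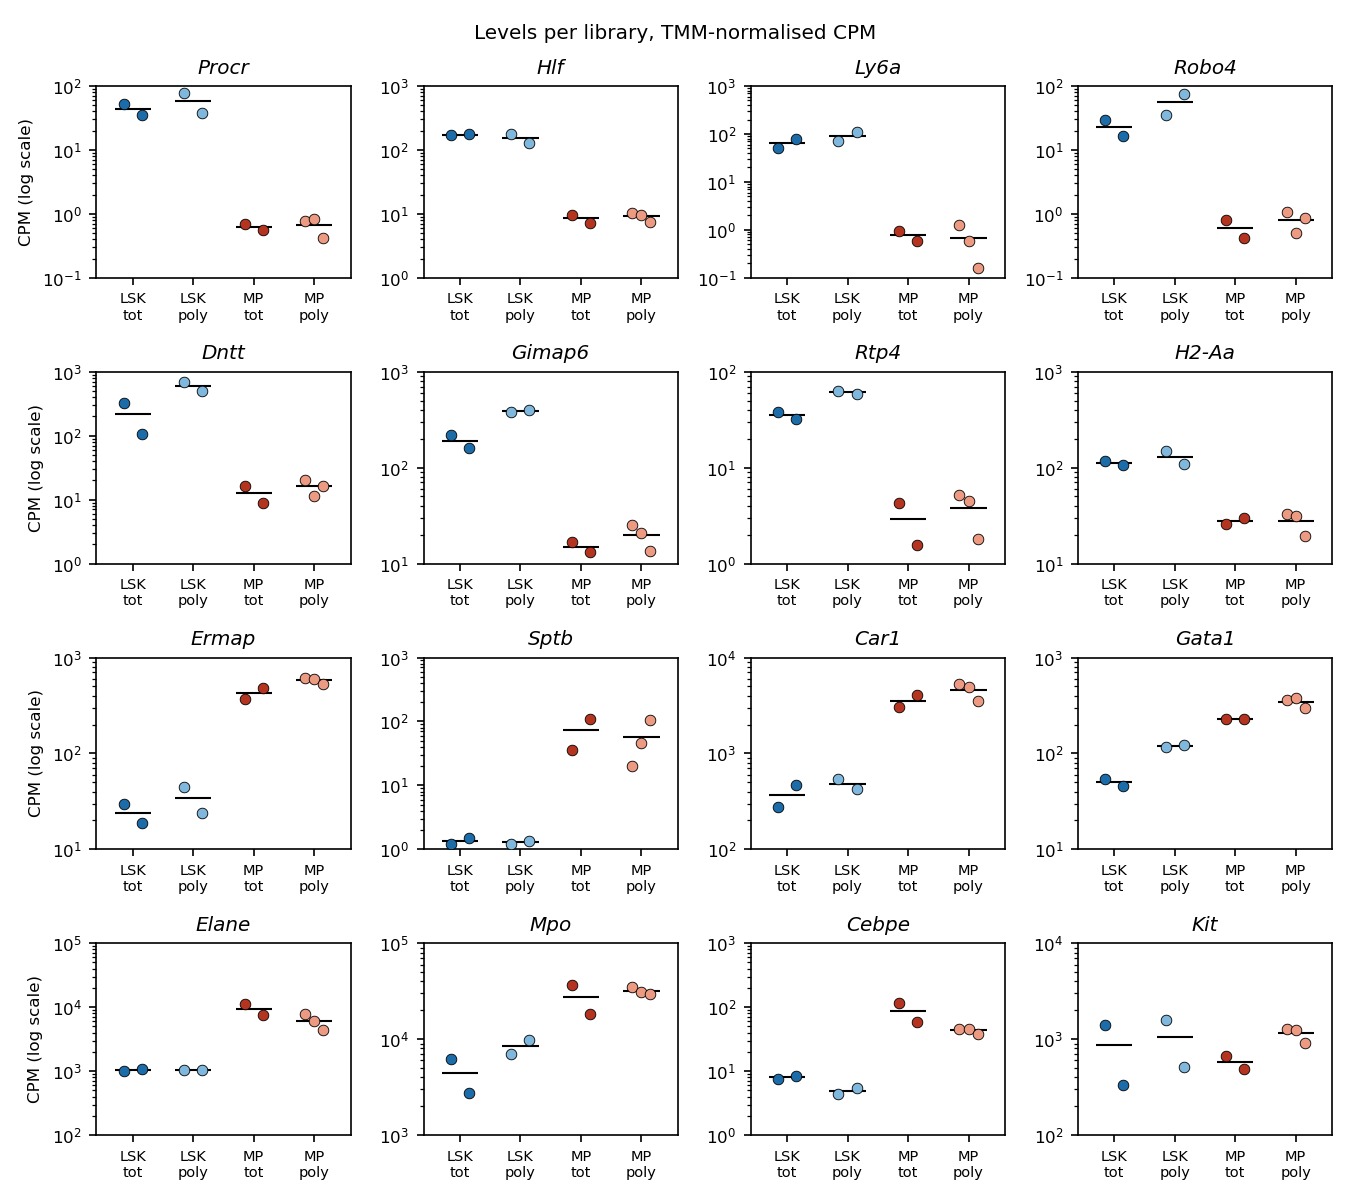
TMM-normalised CPM on a log scale for 16 genes in each library, with 1 point per library and a bar at the mean of each group, for LSK total, LSK polysomal, MP total and MP polysomal RNA. In 15 panels the LSK and MP libraries form separate levels in both fractions, and in the panel of Kit the 4 LSK libraries span the 5 MP libraries.

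Genes of lymphoid priming made up a further set of decreases. Of 27 such genes 17 were lower in MP (63%, against 7.89% of all tested genes) and 0 higher. The list had a median log2 fold change of -2.14. Dntt encodes terminal transferase, which adds nucleotides at antigen receptor joints, and stood at 329 and 105 CPM in LSK total, 698 and 507 CPM in LSK polysomal, 16.2 and 8.96 CPM in MP total and 20.5, 11.3 and 16.5 CPM in MP polysomal RNA. The populations did not overlap, with a log2 fold change of -4.73 (SE 0.487, adjusted p = 0.000464). Flt3, the cytokine receptor that marks lymphoid-primed progenitors, was at 160 and 289 CPM in LSK total, 274 and 1474 CPM in LSK polysomal, 33.1 and 31.4 CPM in MP total and 18.0, 23.7 and 46.7 CPM in MP polysomal RNA. LSK polysomal 2 stood apart at the top, yet the lowest LSK library was still above the highest MP library (log2 fold change -3.98, SE 0.644, adjusted p = 0.00335). Ccr7, a chemokine receptor of lymphocytes, and Lax1, an adaptor of antigen receptor signalling, had log2 fold changes of -4.63 (SE 0.523) and -4.99 (SE 0.476). The count for this list was 11 without LSK polysomal 1, 11 without both LSK or both MP libraries numbered 1 and 6 without both MP libraries numbered 2.

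The Gimap genes encode GTPases of the immunity-associated family that are known from lymphocytes, and they lie side by side on chromosome 6. Of 8 Gimap genes in the list 6 were lower in MP (75%, against 7.89% of all tested genes). The list had a median log2 fold change of -3.92, the lowest median of the lists. Gimap6 (chromosome 6, 48701582 to 48708225, GRCm38) was at 220 and 159 CPM in LSK total, 382 and 401 CPM in LSK polysomal, 16.7 and 13.1 CPM in MP total and 25.0, 20.6 and 13.5 CPM in MP polysomal RNA. In both fractions the LSK libraries lay above all MP libraries, with a log2 fold change of -4.02 (SE 0.355, adjusted p = 0.000367). Gimap7 fell by 5.55 (SE 0.478), from 16.9 ± 8.65 CPM (SD, n = 4) to 0.369 ± 0.170 CPM (SD, n = 5). The longest run of adjacent tested genes that were all lower was this cluster, with 9 genes between positions 48684549 and 48756368 of chromosome 6. It includes antisense and other overlapping transcripts, whose reads may not be separable from those of the Gimap genes because the labels do not state whether counting used strand.

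Of 40 interferon-linked genes 24 were lower in MP (60%, against 7.89% of all tested genes) and 0 higher. The list had a median log2 fold change of -2. Rtp4, a chaperone induced by interferon, was at 37.7 and 32.4 CPM in LSK total, 62.6 and 58.9 CPM in LSK polysomal, 4.30 and 1.56 CPM in MP total and 5.23, 4.46 and 1.78 CPM in MP polysomal RNA (log2 fold change -3.81, SE 0.478, adjusted p = 0.00106). No MP library came near the LSK range. Oasl2, a member of the family of oligoadenylate synthetases that sense viral RNA, fell by 3.24 on the log2 scale (SE 0.451) and Tgtp1, an interferon-inducible GTPase, fell by 4.26 (SE 0.553). A run of 7 adjacent lower genes on chromosome 5 (120648812 to 120907521) holds 6 genes of the Oas family, and was picked out after its values were seen. The count of 24 was 15 without MP total 2, 11 without both LSK libraries numbered 1, 14 without both MP libraries numbered 1 and 5 without both MP libraries numbered 2, with medians from -1.73 to -2.24 over all settings tried.

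Some genes of antigen presentation were lower as well. Of 8 class II genes 5 passed as lower (62.5%), with a median log2 fold change of -1.73. Of 14 class I genes 3 passed as lower (21.4%), with a median of -0.999. Among all tested genes 7.89% passed as lower. H2-Aa, a class II alpha chain, was at 116 and 107 CPM in LSK total, 150 and 110 CPM in LSK polysomal, 25.7 and 29.6 CPM in MP total and 33.0, 31.1 and 19.6 CPM in MP polysomal RNA. Both fractions held LSK and MP apart (log2 fold change -2.13, SE 0.326, adjusted p = 0.00268). H2-Eb1, a class II beta chain, fell by 2.49 (SE 0.391). The class I genes that passed were H2-Q6, H2-T22 and H2-T23, and these belong to families of close copies among which reads may be shared. H2-T22 lost its call without MP polysomal 2 or MP total 2 (adjusted p = 0.0565 and 0.0620), and H2-T23 without those libraries or MP polysomal 3 (0.0552 to 0.0663). With 1 mean per population and number both lost it (0.0691 and 0.0557). The class II count was 3 without 6 of the 9 single libraries, and the class I count was 1 without MP total 2 and 0 without both LSK libraries numbered 1 or both MP libraries of either number.

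Immunoglobulin genes held the largest decreases of all members, and these rest on uneven levels in LSK and low levels in MP libraries. Of 110 immunoglobulin segments and constant genes tested, 74 were lower in MP and 1 was higher, against 7.89 and 2.82% of all tested genes. Igkc, the kappa light chain constant gene, was at 136 and 2245 CPM in LSK total, 111 and 695 CPM in LSK polysomal, 1.80 and 2.76 CPM in MP total and 2.29, 2.38 and 1.27 CPM in MP polysomal RNA. The LSK libraries numbered 2 were well above those numbered 1 in both fractions, and all of them lay above MP (log2 fold change -8.30, SE 0.970, adjusted p = 0.000758). Jchain, which joins polymeric immunoglobulin of plasma cells, was at 24.2 and 522 CPM in LSK total and 28.6 and 86.6 CPM in LSK polysomal RNA, and at most 0.779 CPM in MP libraries. Ighg3, a heavy chain constant gene, had 6262 reads over the 4 LSK libraries and 0 over the 5 MP libraries, and LSK polysomal 2 stood at 199 CPM against 7.21 to 25.9 CPM in the other LSK libraries. Of 20 tested B cell genes 11 were lower (55%), with a summed level of 755 to 4940 CPM in LSK and 273 to 570 CPM in MP libraries. The B cell gene Ms4a1 was at 0 to 1.1 CPM in LSK and 0.033 to 0.433 CPM in MP libraries. The count was 7 when MP polysomal 2 was left out, and 5 when both MP libraries of number 2 were. The part of antibody-producing cells in the LSK libraries was not tested.

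Genes of the red cell membrane made up a large set among those that were higher in MP. Of 24 such genes 15 passed as higher, against 2.82% of all tested genes, 1 passed as lower and the median log2 fold change was 3.02. Ermap, an erythroid membrane protein (chromosome 4, 119175457 to 119190011, GRCm38), was at 29.7 and 18.6 CPM in LSK total, 44.7 and 23.8 CPM in LSK polysomal, 369 and 481 CPM in MP total and 616, 600 and 529 CPM in MP polysomal RNA. The lowest MP library was several times the highest LSK library, and the log2 fold changes were 4.14 in total and 4.08 in polysomal RNA (additive 4.11, SE 0.369, adjusted p = 0.000376). Sptb, which encodes the beta spectrin of the red cell skeleton, was at 1.20 and 1.52 CPM in LSK total, 1.23 and 1.33 CPM in LSK polysomal, 36.0 and 109 CPM in MP total and 20.3, 45.2 and 104 CPM in MP polysomal RNA. MP libraries varied among themselves by several times, while the LSK libraries were alike at a low level (log2 fold change 5.59, SE 0.653, adjusted p = 0.000758). Ank1, which anchors spectrin to the membrane, and Add2, the beta adducin that caps its actin, were higher by 4.00 (SE 0.447) and 4.39 (SE 0.459) on the log2 scale. The count of 15 lay between 14 and 16 in the fits that left out 1 library.

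Of 6 globin and carbonic anhydrase genes 1, Car1, was higher (16.7%, against 2.82% of all tested genes). Car1, carbonic anhydrase 1, was at 278 and 467 CPM in LSK total, 543 and 426 CPM in LSK polysomal, 3013 and 4069 CPM in MP total and 5292, 4911 and 3521 CPM in MP polysomal RNA (log2 fold change 3.24, SE 0.320, adjusted p = 0.000405). All MP libraries lay above all LSK libraries. Car2, another carbonic anhydrase, overlapped between populations (log2 fold change 0.76, SE 0.296, adjusted p = 0.146). Aqp1, the water channel of the red cell membrane, was higher by 3.33 (SE 0.431) and Slc38a5, an amino acid transporter, by 3.62 (SE 0.372). The alpha globin gene Hba-a1 did not pass (log2 fold change 0.51, SE 0.656, adjusted p = 0.734) and reached at most 26.3 CPM in LSK and 31.4 CPM in MP libraries. The count of the globin and carbonic anhydrase list was 1 in all 21 alternative settings of the model.

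Some regulators of the erythroid lineage and some genes of heme and iron rose as well. Gata1, the transcription factor that drives red cell and megakaryocyte formation, was at 54.3 and 45.6 CPM in LSK total, 116 and 124 CPM in LSK polysomal, 230 and 228 CPM in MP total and 360, 376 and 299 CPM in MP polysomal RNA. It was higher in MP in each fraction and higher in polysomal than in total RNA of the same population (population log2 fold change 1.83, SE 0.305, adjusted p = 0.00403). Of 16 erythroid transcription factor genes and their known targets 3 rose (18.8%) and 1 fell (6.25%), against 2.82 and 7.89% of all tested genes. Gata1, Aqp1 and Epor, the erythropoietin receptor, rose, and Trib3, a pseudokinase, fell. Of 13 heme synthesis genes 2 rose (15.4%). They were Alas1, a first enzyme of the pathway (log2 fold change 1.98, SE 0.371), and Tmem14c, a mitochondrial carrier of its intermediates (1.37, SE 0.310). The largest change of the heme list, 2.86, was that of a gene that did not pass. The list had 6 higher members without LSK polysomal 2 and 1 without LSK total 1, MP polysomal 2 or MP total 2. Of 13 iron genes 3 rose (23.1%), the transporters Slc40a1 and Slc11a2 and the ferric reductase Steap3. Slc40a1, which encodes ferroportin, had a log2 fold change of 3.16 (SE 0.336). Tfrc, the transferrin receptor, had log2 fold changes of 0.79 in total and 3.26 in polysomal RNA and did not pass in the additive model (2.10, SE 0.658, adjusted p = 0.0701). Epor lost its call without LSK total 2 (adjusted p = 0.0627) and without MP polysomal 3 (0.0592), and Tmem14c without LSK total 1, MP polysomal 2 or MP total 2 (0.0501 to 0.0664).

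Genes of the primary granules, which myeloid precursors fill with proteases and peroxidase, were the other large increase. Of 16 such genes 9 passed as higher (56.2%, against 2.82% of all tested genes) and 0 as lower. The list had a median log2 fold change of 1.61. Elane, which encodes neutrophil elastase (chromosome 10, 79886247 to 79888215, GRCm38), was at 1015 and 1089 CPM in LSK total, 1023 and 1059 CPM in LSK polysomal, 11082 and 7568 CPM in MP total and 7902, 6026 and 4393 CPM in MP polysomal RNA. LSK libraries were nearly equal and all MP libraries lay above them (log2 fold change 2.82, SE 0.313, adjusted p = 0.000610). Mpo, myeloperoxidase, was at 6214 and 2744 CPM in LSK total, 6952 and 9813 CPM in LSK polysomal, 36847 and 18240 CPM in MP total and 34819, 31345 and 29527 CPM in MP polysomal RNA. The populations did not overlap, with a log2 fold change of 2.24 (SE 0.356, adjusted p = 0.00311). Prtn3, proteinase 3, lies next to Elane on chromosome 10 and was higher by 2.32 (SE 0.358), and Ctsg, cathepsin G, by 2.15 (SE 0.392). The summed level of the 16 genes was 8885 to 14922 CPM in LSK and 38301 to 64874 CPM in MP libraries. Without both MP libraries numbered 1, those with the most neutrophil RNA, 6 of these genes passed as higher and the median was 1.39.

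Some myeloid receptor genes rose. Of 17 receptor and surface genes of myeloid cells 5 were higher and 0 lower, and of 17 myeloid transcription factor genes 1 was higher (5.88%) and 2 were lower (11.8%), against 2.82 and 7.89% of all tested genes. Cebpe, a transcription factor of granule formation, was at 7.64 and 8.48 CPM in LSK total, 4.32 and 5.44 CPM in LSK polysomal, 118 and 58.9 CPM in MP total and 46.3, 46.3 and 38.1 CPM in MP polysomal RNA (log2 fold change 3.29, SE 0.394, adjusted p = 0.000862). MP total 1 was the highest library, and all MP libraries were above LSK. Fcgr3, the Fc receptor used to split progenitors, averaged 40.2 ± 15.5 CPM (SD, n = 4) in LSK and 229 ± 67.2 CPM (SD, n = 5) in MP libraries. Csf1r, the receptor of macrophage colony-stimulating factor, was at 39.6 and 6.56 CPM in LSK total, 42.0 and 23.2 CPM in LSK polysomal, 165 and 78.6 CPM in MP total and 151, 178 and 147 CPM in MP polysomal RNA. Its call (log2 fold change 2.34, SE 0.534, adjusted p = 0.0180) was lost without LSK polysomal 1 (adjusted p = 0.0510) or MP total 1 (0.0614). Irf4, a transcription factor of lymphoid and dendritic cells, was lower by -2.69 (SE 0.619) at levels of at most 2.19 CPM, and lost its call without any of 3 single libraries (adjusted p = 0.0552 to 0.0629). The receptor count was 3 without MP total 1 and 2 without both MP libraries of either number.

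Genes of later granulocytes depended on which MP libraries were used. Of 22 tested genes of maturing neutrophils 3 were higher in MP (13.6%) and 1 lower (4.55%), against 2.82 and 7.89% of all tested genes. The median log2 fold change of the list was 1.91 and turned to -1.12 without both MP libraries numbered 1. S100a8, a calcium-binding protein of neutrophils, was at 128 and 104 CPM in LSK total, 218 and 67.9 CPM in LSK polysomal, 2781 and 577 CPM in MP total and 1823, 285 and 194 CPM in MP polysomal RNA. The libraries MP total 1 and MP polysomal 1 held the most, and MP polysomal 3 lay below LSK polysomal 1 (log2 fold change 3.06, SE 0.815, adjusted p = 0.0366). The call was lost without any 1 of 5 libraries (adjusted p = 0.0691 to 0.129), and the higher count of the list was 1 without any of the same 5 libraries. The summed level of the list was 1172 to 4136 CPM in LSK and 1099 to 24056 CPM in MP libraries.

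Mast cell and basophil genes moved in both directions. Of 17 tested genes 4 were higher (23.5%) and 3 lower (17.6%) in MP, against 2.82 and 7.89% of all tested genes. Hdc, histidine decarboxylase, and Prg2, the major basic protein of eosinophil and basophil granules, were higher by 2.35 (SE 0.450) and 2.27 (SE 0.412) on the log2 scale. Cma1 and Tpsb2, a chymase and a tryptase of mature mast cells, were lower, with levels of 2.52 to 3.27 and 1.30 to 2.49 CPM in LSK libraries and at most 0.617 and 0.342 CPM in MP libraries. Without LSK polysomal 1 the number of higher genes was 2, and without LSK polysomal 2 the median of the list turned from 0.53 to -0.11. The summed level of the list was 403 to 583 CPM in LSK and 564 to 1143 CPM in MP libraries.

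Lists of megakaryocyte, T cell and macrophage genes had some members that passed, where 7.89% of all tested genes were lower and 2.82% higher. Of 21 megakaryocyte genes 2 were lower, among them Selp, an adhesion receptor of platelets, and 0 higher, with a median of -0.27 and a summed level of 1766 to 2776 CPM in LSK and 1040 to 1581 CPM in MP libraries. Of 15 tested T and NK cell genes 2 were lower, among them Lck, a kinase of T cell receptor signalling that fell by 4.11 (SE 0.495), from 28.1 to 123 CPM in LSK to 2.01 to 5.33 CPM in MP libraries. The summed level of that list was 436 to 752 CPM in LSK and 507 to 993 CPM in MP libraries, while its median log2 fold change was -0.81. The defining T cell gene Cd3e had a count of 0 in 2 LSK and 2 MP libraries and at most 0.0499 CPM elsewhere. Of 18 macrophage and dendritic cell genes 4 (22.2%) were lower and 2 (11.1%) higher. The higher ones were Vcam1, an adhesion molecule, and Slc40a1, which erythroid cells also express. Vcam1 was at 8.69 and 3.64 CPM in LSK total, 58.4 and 21.2 CPM in LSK polysomal, 170 and 72.8 CPM in MP total and 452, 218 and 224 CPM in MP polysomal RNA (log2 fold change 3.52, SE 0.580, adjusted p = 0.00370). The summed level of the macrophage list was 57.9 to 282 CPM in LSK and 216 to 781 CPM in MP libraries, and the number of lower genes was 2 in 6 of the 9 fits that left out 1 library. The part of these cells in the results was not tested.

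**Figure D4:**
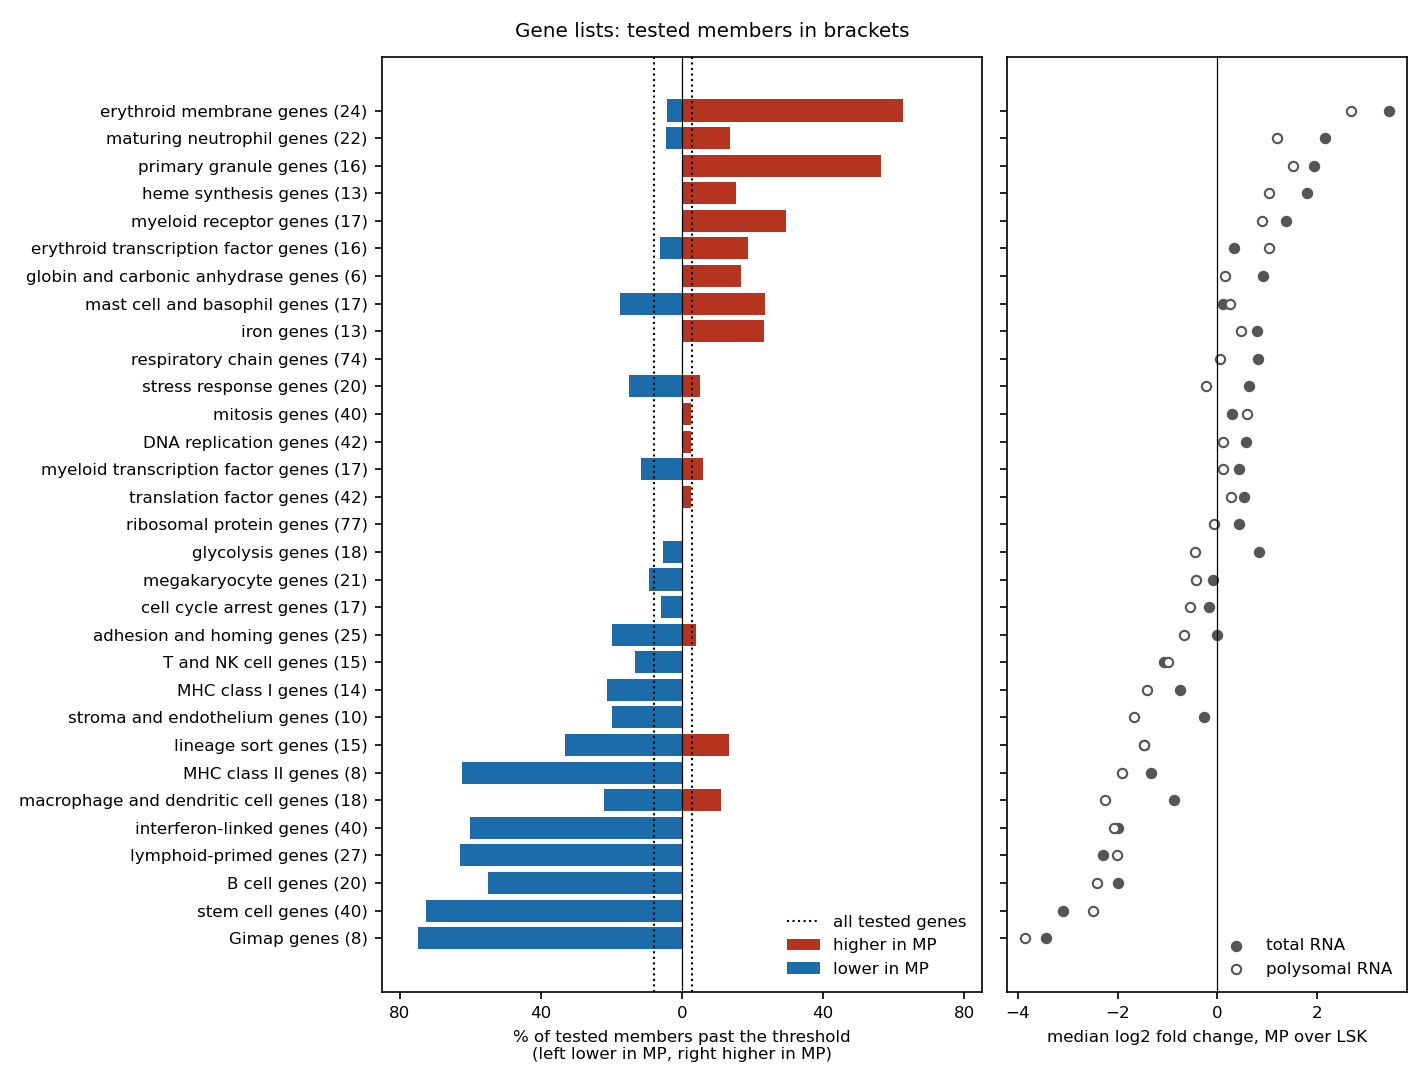
For each of 31 gene lists, the left panel gives the percentage of tested members that passed as lower (left) and higher (right) in MP, with dotted lines at 7.89 and 2.82% for all tested genes. The right panel gives the median log2 fold change of the list in total RNA (filled) and polysomal RNA (open), with Gimap and stem cell genes at the low end and erythroid membrane genes at the high end in both.

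Few genes of growth and of basic metabolism passed, where 2.82% of all tested genes were higher and 7.89% lower. For DNA replication, mitosis and translation factor genes the share that was higher was near that of all tested genes. Of 42 DNA replication genes 1 was higher (2.38%), Rrm2, a subunit of ribonucleotide reductase. Of 40 mitosis genes 1 was higher (2.5%), Cdca8, a subunit of the chromosomal passenger complex. The calls of both were lost without any of 7 single libraries (adjusted p of Rrm2 0.0543 to 0.0813, of Cdca8 0.0518 to 0.136), and without LSK polysomal 2 the mitosis list had 3 lower and 0 higher genes. Cdk1, the kinase that drives mitosis, was at 189 to 381 CPM in LSK and 239 to 462 CPM in MP libraries and overlapped (log2 fold change 0.27, SE 0.315, adjusted p = 0.711). Of 77 ribosomal protein genes and 74 genes of the respiratory chain 0 passed in either direction with edgeR, with medians of 0.20 and 0.35, and the former turned to -0.0556 when scaled by library totals alone. The estimate was positive for 63 and negative for 14 of the ribosomal protein genes, and positive for 69 and negative for 5 of the respiratory chain. Missing the threshold does not show equal levels, since no change under 1.14 on the log2 scale passed for any gene. Of 42 translation factor genes 1 rose (2.38%), Eif4g1, a scaffold of the cap-binding complex (log2 fold change 1.94, SE 0.456, adjusted p = 0.0204). Its call was lost without any of 4 single libraries (adjusted p = 0.0506 to 0.0917). Actb, beta actin, overlapped between populations (log2 fold change 0.33, SE 0.393, adjusted p = 0.714). Of 18 glycolysis genes 1 was lower (5.56%), Aldoc, an aldolase, at 9.40 to 49.3 CPM in LSK and 1.31 to 1.77 CPM in MP libraries.

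Of 17 cell cycle arrest genes 1 was lower (5.88%, against 7.89% of all tested genes). This was Cdkn1c, which encodes the inhibitor p57 of quiescent stem cells. It was at 0.467 and 21.0 CPM in LSK total, 1.49 and 1.25 CPM in LSK polysomal, 0.133 and 0.519 CPM in MP total and 0.137, 0 and 0.223 CPM in MP polysomal RNA. The populations overlapped and LSK total 2 held by far the most. The call (adjusted p = 0.0324) was lost without any of 7 single libraries (0.0553 to 0.203, the highest without LSK total 2). It was also lost with limma voom that took population and number as a random block (0.137). Of 20 stress response genes 1 was higher (5%) and 3 were lower (15%), against 2.82 and 7.89% of all tested genes. The higher one was Asns, asparagine synthetase (log2 fold change 2.27, SE 0.324, adjusted p = 0.00191). The lower ones were Trib3, Nupr1 and Vldlr. Without LSK polysomal 2 the stress list had 3 higher genes. The receptor gene Vldlr averaged 32.4 ± 16.6 CPM (SD, n = 4) in LSK and 0.692 ± 0.463 CPM (SD, n = 5) in MP libraries.

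Other genes with small p-values or large changes belonged to no list. Bdh2, a short-chain dehydrogenase, averaged 15.8 ± 5.52 CPM (SD, n = 4) in LSK and 0.127 ± 0.0821 CPM (SD, n = 5) in MP libraries, a log2 fold change of -6.97 (SE 0.593). Fstl1, a secreted follistatin-like protein, fell by 5.35 (SE 0.448) and Pygm, a glycogen phosphorylase, fell by 5.05 (SE 0.435). Among the genes that were higher, Abcg4, a sterol transporter, rose by 4.67 (SE 0.666), Acsl6, an acyl-CoA synthetase, by 4.40 (SE 0.467) and Col5a1, a collagen chain, by 3.54 (SE 0.390). Ces2g, a carboxylesterase, was at 38.4 to 76.4 CPM in LSK and 382 to 615 CPM in MP libraries. Among the abundant genes, Txnip, an inhibitor of thioredoxin, fell by 1.89 (SE 0.283) from 725 to 2294 CPM in LSK to 203 to 519 CPM in MP libraries, and Tmem176b, a membrane protein of myeloid cells, fell by 2.38 (SE 0.339).

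Members that were lower often lay next to each other in the genome. Of 1252 lower genes that could be placed in GRCm38, 404 (32.3%) had an adjacent tested gene that was also lower, while 14.6% of all placed genes had such a neighbour. Of 449 higher genes 77 (17.1%) had an adjacent higher gene, against 5.56% of all placed genes. The runs of lower genes were led by the Gimap cluster on chromosome 6, by runs of 8 and 7 heavy chain variable genes on chromosome 12, by 7 kappa variable genes on chromosome 6 and by the 7 genes with the Oas family on chromosome 5. The longest run of higher genes had 3 members. By family, picked out after the values were seen, 5 of 8 tested Hoxa genes and 11 of 24 genes of the H2 complex were lower, and of 250 genes whose symbols start with Slc 22 were higher and 21 lower, where 2.82% of all tested genes were higher and 7.89% lower. Adjacent genes can share reads where they overlap or are close copies, so these counts are a description.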

How the data were processed

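The authors deposited raw read counts per gene, whole numbers for 47480 genes in 9 libraries. Per the submitters' processing notes they used bcl2fastq, STAR, featureCounts and DESeq2 with the builds mm10 and GRCm38. Tool versions, gene models and the strand option were not stated there. Their normalized table was not used here. RNA had been amplified before sequencing (SMARTer), per the labels' protocols, and reads are not independent molecules, so counts carry amplification error too.

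Genes were kept by edgeR's filter over the 4 groups (minimum count 10, minimum total 15), scaled by TMM and fitted with edgeR 4.0.16 (R 4.3.3) in a quasi-likelihood model of fraction and population. All adjusted p-values are from edgeR's quasi-likelihood test with Benjamini-Hochberg adjustment over all 16426 tested genes, at a threshold of 0.05, unless another tool is named. A model with 1 mean per group gave the effect in each fraction and the test of their difference. Alternatives used DESeq2 1.42.0, limma 3.58.1 voom, other scalings, no filter, blocks and left-out libraries. The code was tested on simulated data. There the population test found 1 of 50 genes changed 2-fold, 6 of 50 changed 4-fold, 31 of 50 changed 8-fold and 45 of 50 changed 16-fold. A single-gene exact permutation test that holds the fraction fixed has 60 splits. With the two-sided p taken as 2 times the one-sided p, it cannot go below 0.033. Over all 126 splits the limit by the same convention is 0.016. Neither was used.

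Named genes were taken from the largest changes, smallest p-values and highest levels among called genes without overlap, up to 4 members of each list by p, and fixed markers. The members and lists were chosen with earlier results of these data known. Positions are from GENCODE for GRCm38 by gene symbol. A few genes are not reported here.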

Additional observations from a re-analysis of the deposited data

Results flagged for a closer look

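In 212 groups of 4 LSK or 5 MP values of the genes followed, 13 had 1 library set apart from the others of its population by a gap test on CPM. For values with a normal spread chance gives about 1 in 20, and 13 of 212 is near that share. The rate need not hold for CPM near 0. LSK polysomal 2 stood high for Flt3 (1474 CPM), Ighg1 (176 CPM) and Ighg3 (199 CPM) and low for Hlf (127 CPM). LSK total 2 stood high for Cdkn1c (21.0 CPM), Irf4 (2.19 CPM) and Jchain (522 CPM). LSK polysomal 1 stood high for Car2 (2809 CPM) and Fcgr3 (63.4 CPM). Among MP libraries, MP polysomal 1 stood high for Slamf1 (6.18 CPM) and Tpsb2 (0.342 CPM). MP total 1 stood high for Cebpe (118 CPM) and for Ighg1 (0.0999 CPM, with a count of 0 in the other MP libraries).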

How the results depend on the processing

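Of 96 called genes followed through 21 alternative settings, 62 kept their call and direction in all of them, 80 in every fit that left out 1 library, and 0 changed direction. The additive count of 1759 became 2900 with DESeq2 (2898 with the same direction in both fractions), 1159 with 1 mean per population and number, 827 without both MP libraries numbered 1 and 546 without both numbered 2. Leaving out 1 library gave 1129 to 1847 (1122 to 1845 with the same direction). Without the filter 2610 genes passed, of 31421 tested. In total RNA the count of 179 became 328 by library totals, 1206 without the filter and 0 to 446 without 1 library. In polysomal RNA the count of 551 became 1558 without the filter and 0 to 516 without 1 library, and 4 genes differed between fractions without the filter. The cause of these changes was not tested.

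With the replicate number as a block, 1504 genes passed (1357 shared with the additive model), 570 in total RNA alone and 418 in polysomal RNA alone. Deviations of same-numbered libraries from their group means correlated from -0.375 to 0.62. All pairs among the libraries numbered 1 were positive (0.253 to 0.62). The negative pairs all involved MP polysomal 2 (-0.0575 to -0.375), while MP polysomal 3 correlated with the libraries numbered 2 at 0.569 to 0.608. The numbers were not taken to pair the libraries, and the additive model treated all 9 as independent. Whether some of them share a sort or batch was not tested.

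Kit, which was not called at -0.19, was at 0.13 with the block and 0.0735 with limma voom that took population and number as a random block. It was at 0.0379 with 1 mean per population and number and 1.06 without both LSK libraries numbered 1. Without 1 library it was at -0.53 to 0.37 (above 0 without LSK polysomal 1 or LSK total 1). Without 1 library, list medians ran from -0.32 (without MP total 2, with -0.10 without MP polysomal 3) to 0.94 for myeloid transcription factor genes, from -0.11 (without LSK polysomal 2) to 0.55 for mast cell and basophil genes, from -0.40 to 0.0194 (without MP polysomal 2) for cell cycle arrest genes, and from -0.12 (without LSK total 2, with -0.0685 without MP total 1) to 0.35 for glycolysis genes. Without both MP libraries numbered 1 the medians of maturing neutrophil and glycolysis genes were -1.12 and -0.10, without both numbered 2 that of ribosomal protein genes was -0.00753, and without both LSK libraries numbered 2 that of mitosis genes was -0.11. By library totals, ribosomal protein, translation factor and glycolysis genes were at -0.0556, -0.015 and -0.0481. Levels of a few reads per library, as in many lower members, leave their fold changes imprecise.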
